A study of Mus musculus with 4 samples.

Results

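The Fc gamma receptors of the mouse and their shared signalling chain were followed in CD11b-selected cells of the cortex. The 5 genes, Fcgr1, Fcgr2b, Fcgr3, Fcgr4 and Fcer1g, were taken by symbol from the 32227 genes counted, and all 5 passed the filter on low counts in every comparison below. Wild-type mice had received adeno-associated virus in the cortex on postnatal day 0 or 1 and were taken on postnatal day 15. In the control group the virus carried mCherry (the membrane-bound form mCherry-CAAX, a red fluorescent protein). In the other group it carried Hevin, a secreted synapse-promoting protein encoded by Sparcl1. In both groups expression was driven by GfaABC1D, a short promoter active in astrocytes, so the cells measured here were not those meant to carry the transgene. Brains of both groups were dissociated with inhibitors of transcription (triptolide, actinomycin D) and of translation (anisomycin). There were 2 PIPseq single-cell libraries per group, and the number of animals behind a library is not given. The p-values between groups therefore measure the spread between these libraries, which may be technical. Comparisons of cell classes, or of Hevin effects between classes, used the library as a block. Their p-values measure how class differences varied between libraries, which may be technical too.

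Fc gamma receptors bind the constant part of immunoglobulin G and let phagocytes take up or respond to antibody-coated targets. Fcgr1 (CD64) binds monomeric antibody with high affinity, whereas Fcgr3 and Fcgr4 need antibody in complexes. These 3 receptors activate the cell through Fcer1g, the common Fc receptor gamma chain, whose ITAM motif is phosphorylated by Src-family kinases and then recruits Syk. Fcgr2b is the inhibitory receptor of the family, and its ITIM motif recruits the phosphatase SHIP1 (Inpp5d). The ratio of activating to inhibitory receptors is commonly used to describe how readily a macrophage responds to immune complexes, and microglia and border macrophages are known to carry several of these receptors.

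In mm10 (GENCODE M21) 4 of the genes lie close together on chromosome 1. Fcgr2b is at chr1:170958617-170976547 (minus strand), Fcgr4 at chr1:171018920-171029761 (plus strand), Fcgr3 at chr1:171051174-171064935 (minus strand) and Fcer1g at chr1:171229572-171234365 (minus strand). Fcgr1 is at chr3:96282909-96293969 (minus strand). Fcgr2b and Fcgr3 are close relatives, and 166 of the 1733 different 50-base words in the annotated Fcgr3 transcripts (9.58%) also occur in those of Fcgr2b (2.92% of its 5685). Reads from those stretches could be split between the genes in a way that the sources used here do not state. No other pair among the 5 shared such a word. An annotated antisense gene, Gm38204, overlaps Fcgr2b, and whether counting used strand is not given.

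After filtering, mCherry replicates 1 and 2 had 17833 and 10849 cells and Hevin replicates 1 and 2 had 19653 and 13036, with a median of 3350, 4037, 2329 and 3493.5 UMIs (unique molecular identifiers, 1 per captured RNA molecule). At most 7 cell barcodes were shared by any pair of libraries. The libraries differed in sex, with the X-inactivation RNA Xist at 539.5 (mCherry 1), 1046 (mCherry 2), 1.19 (Hevin 1) and 1210 (Hevin 2) CPM, the usual scaling of a gene's UMIs to the total of the cells summed. Cells were assigned to classes by summed marker panels that hold none of the 5 genes. The microglia gate (8 genes such as P2ry12, Tmem119 and Sall1) took 15361 and 9338 cells with mCherry and 6382 and 5709 with Hevin. The border macrophage gate (6 genes such as Lyve1, Cd163 and Mrc1) took 1186 and 791 against 929 and 731 cells. Cells high in Apoe and Ms4a7 that failed the microglia and border gates, called Apoe-high here, numbered 75 and 39 with mCherry but 9840 and 5427 with Hevin. A gate high in MHC class II genes took between 109 and 240 cells per library, and between 243 and 1479 cells per library passed no gate.

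**Figure D1:**
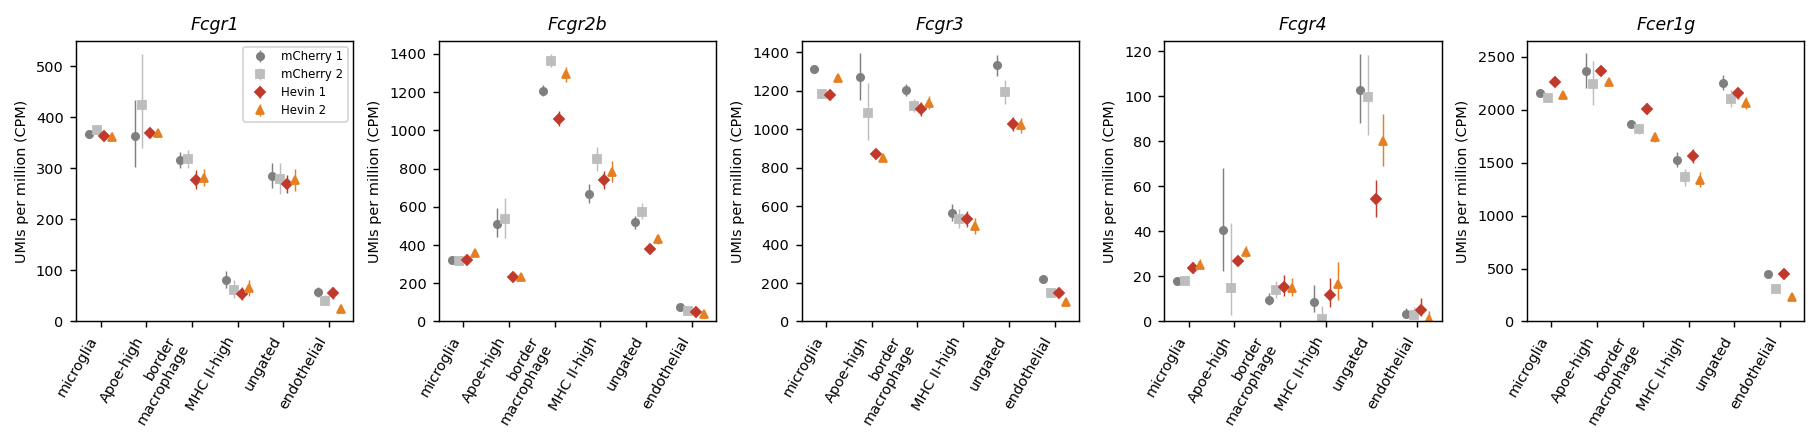
CPM of each of the 5 genes (y axes start at 0) in 6 cell classes of the 4 libraries, with 95% Poisson intervals that cover counting error alone. Fcgr2b is highest in the border macrophage gate (1061 to 1364 CPM), Fcgr4 in cells that passed no gate (54.3 to 103 CPM), and all 5 genes are low in the endothelial gate.

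Fcer1g, the signalling chain, was the member with the flattest profile over the myeloid classes. In microglia-gated cells its level was 2163 and 2109 CPM with mCherry and 2263 and 2140 CPM with Hevin. Border-macrophage-gated cells had 1867 and 1816 CPM against 2010 and 1743 CPM, and MHC class II-high cells had 1336 to 1564 CPM. Every library was lower in the border macrophage gate than in its own microglia gate. Endothelial-gated cells, which should lack these genes, had 233 to 448 CPM of Fcer1g, 102 to 223 CPM of Fcgr3, 37.3 to 73.7 CPM of Fcgr2b, 24.5 to 57.1 CPM of Fcgr1 and 1.29 to 5.21 CPM of Fcgr4. These values are the background against which low levels elsewhere have to be read.

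The inhibitory receptor Fcgr2b was higher in border macrophages than in microglia. It stood at 323, 319, 322 and 357 CPM in microglia-gated cells (mCherry 1 and 2, then Hevin 1 and 2). In border-macrophage-gated cells it stood at 1206, 1364, 1061 and 1292 CPM. These are sums over cells, and every border macrophage sum lay above every microglial sum. The log2 difference was 1.75 ± 0.05 (SE, edgeR adjusted p = 3.9e-17, a fit over class sums with the library as a block). All 5 members passed the test between the 2 classes, in a comparison in which 57% of the 15517 genes tested did so (27.7% higher and 29.3% lower in border macrophages).

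The other 4 members were lower in the border macrophage gate. Fcgr1, the high-affinity receptor, stood at 368, 375, 363.5 and 363 CPM in microglia against 317, 318, 278 and 282 CPM in border macrophages (log2 difference −0.45 ± 0.04, edgeR adjusted p = 2.1e-08). Fcgr4 stood at 18.1, 17.8, 23.9 and 25.3 CPM against 9.66, 13.8, 15.5 and 14.9 CPM (−0.82 ± 0.12, edgeR adjusted p = 3.1e-06). Both genes were lower in border macrophages than in microglia in each library. Fcgr3 moved least (−0.26 ± 0.04, edgeR adjusted p = 1.5e-05), and Fcer1g had a log2 difference of −0.37 ± 0.03 (edgeR adjusted p = 7.5e-09).

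Fcgr3 and Fcgr2b are low-affinity receptors of opposite sign, and their UMI ratio summarised the contrast. UMIs were not divided by transcript length, so the ratio is read between classes and not as a ratio of molecules. In microglia-gated cells Fcgr3 UMIs were 4.07, 3.70, 3.65 and 3.55 times those of Fcgr2b. In border-macrophage-gated cells the ratio was 0.997, 0.823, 1.04 and 0.881, and in MHC class II-high cells 0.846, 0.627, 0.719 and 0.632. Both classes lay below every microglial value, and within each library the MHC class II-high value was below that of the border macrophages, although the ranges of these classes overlapped across libraries. In the MHC class II-high cells Fcgr1 was at 53.1 to 80.7 CPM, near the endothelial range, while Fcgr2b was at 669 to 849 CPM.

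**Figure D2:**
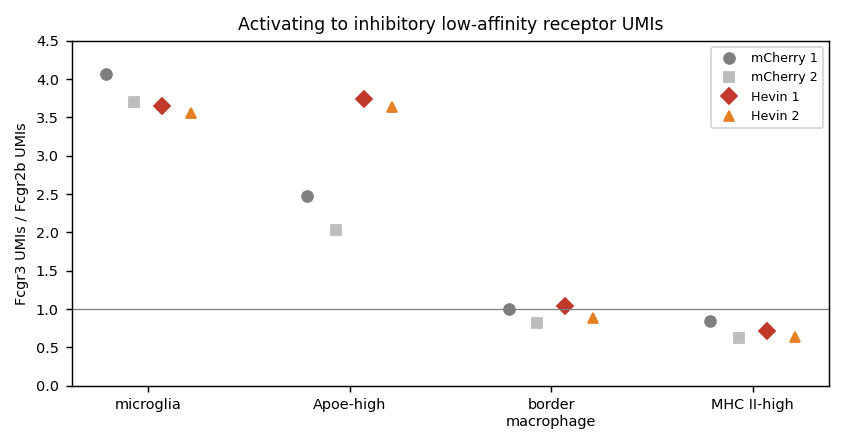
Ratio of Fcgr3 to Fcgr2b UMIs per library in 4 cell classes (y axis from 0, line at 1). Microglia-gated cells lie between 3.55 and 4.07 and border-macrophage-gated cells between 0.823 and 1.04, while Apoe-high cells differ between the groups, at 2.48 and 2.03 with mCherry and 3.74 and 3.64 with Hevin.

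Over all kept cells, Fcgr4 was the member that changed between the virus groups. Its level was 19.3 and 18.8 CPM with mCherry and 26.3 and 29.1 CPM with Hevin, from 935 to 1530 UMIs per library. The log2 fold change was 0.65 ± 0.09 (n = 2 libraries per group, edgeR adjusted p = 0.0050). It was 1 of 5 members called, where 11.1% of the 19119 genes tested were called (6.85% of them higher and 4.3% lower). The fold change lay between 0.54 and 0.72 over 12 alternatives, among them leaving out each library, and passed in all of them.

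The remaining 4 members did not pass the test over all kept cells. Fcgr3 was at 1224 and 1108 CPM against 942 and 1008 CPM (edgeR, −0.14 ± 0.09 on the log2 scale, adjusted p = 0.45). Fcgr2b was at 391.6 and 412 CPM against 317 and 368 CPM (−0.11 ± 0.10, edgeR adjusted p = 0.56). Fcer1g was at 2026 and 1974 CPM against 2213 and 2070 CPM (0.22 ± 0.09, edgeR adjusted p = 0.23). Fcgr1 was flat, at 337.5 and 344 CPM against 337 and 338 CPM (0.10 ± 0.08, edgeR adjusted p = 0.52). Scaling by total counts in place of TMM shifted the median of the genes above 5 log2 CPM by −0.12, and Fcgr1 then had a log2 fold change of −0.02 and Fcgr4 of 0.54.

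These sums mix classes whose sizes differed between the groups. Apoe-high cells held 0.51% and 0.40% of all UMIs with mCherry but 53.8% and 41.9% with Hevin. In the Hevin libraries they supplied 55.0% and 44.6% of the Fcgr4 UMIs, 59.0% and 45.8% of the Fcgr1 UMIs and 39.5% and 26.6% of the Fcgr2b UMIs. Fcgr2b was thus underrepresented in them against their share of all UMIs in both Hevin libraries, and Fcgr1 and Fcgr4 were slightly overrepresented in both.

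Within the microglia gate no member passed the test (edgeR called 0% of 17137 genes, with 934 at an unadjusted p below 0.05, and DESeq2 called 124 genes, none a member). Fcgr4 (values above) had a log2 fold change of 0.50 ± 0.10 (edgeR adjusted p = 0.26). It became significant with no filter on low counts (edgeR adjusted p = 0.013). Fcgr1, Fcgr2b, Fcgr3 and Fcer1g differed by 0.01 to 0.13 on the log2 scale. The microglia gate was not free of the Apoe-high signature: its summed Apoe and Ms4a7 level was 1584 and 1319 CPM with mCherry against 4831 and 3353 CPM with Hevin, and its part in the Fcgr4 value was not tested.

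Border-macrophage-gated cells showed no member past the threshold either (edgeR called 0.331% of 12090 genes). At an unadjusted p below 0.05 edgeR had 931 genes, none a member, and DESeq2 called 49 genes, none a member. Fcgr4 had a log2 fold change of 0.43 ± 0.24 from 47 to 57 UMIs per library (edgeR adjusted p = 0.76). The Hevin effect did not differ detectably between border macrophages and microglia for any member (edgeR, differences of −0.21 to −0.02, log2). In that comparison 0.445% of 15517 genes were called, 959 had an unadjusted p below 0.05 and none of these was a member, and DESeq2 was not run.

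**Figure D3:**
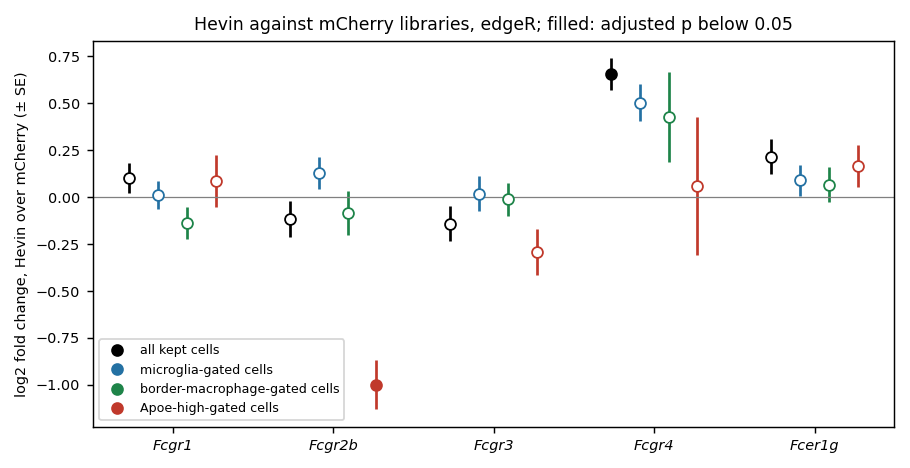
Log2 fold change (± SE) of each gene, Hevin over mCherry libraries, over all kept cells and in 3 cell classes, with filled points for edgeR adjusted p below 0.05. Fcgr4 over all kept cells (0.65) and Fcgr2b in Apoe-high cells (−0.998) are the filled points.

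Apoe-high cells of the Hevin libraries carried less of both low-affinity receptors Fcgr2b and Fcgr3 than the microglia of the same libraries. Fcgr2b was at 233 CPM in both Hevin libraries, against 322 and 357 CPM in microglia (log2 difference −0.49 ± 0.07, edgeR adjusted p = 1.1e-05). Fcgr3 was at 872 and 850 CPM against 1175 and 1268 CPM (−0.46 ± 0.06, edgeR adjusted p = 1.6e-06). Both receptors were lower in both libraries, and their ratio of 3.74 and 3.64 lay within the microglial range.

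Fcgr4 was slightly higher in the Apoe-high cells, at 26.9 and 31.0 CPM against 23.9 and 25.3 CPM (log2 difference 0.28 ± 0.10, edgeR adjusted p = 0.027). That call was lost with total-count scaling (adjusted p = 0.064), without Hevin replicate 2 (adjusted p = 0.29) and with panel bounds divided by 1.5 (adjusted p = 0.22). Fcgr1 (370 and 369 CPM) and Fcer1g (2370 and 2258 CPM) did not pass, with log2 differences of 0.07 ± 0.06 and 0.12 ± 0.05 (edgeR adjusted p = 0.41 and 0.064). Fcer1g passed under 6 of its 12 alternatives, with adjusted p from 0.023 to 0.37. In this comparison 3 of 5 members passed, where 37.6% of all genes tested did (17.6% higher and 19.9% lower).

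Against the border macrophages of the same libraries, Apoe-high cells differed most in Fcgr2b. The log2 difference was −2.13 ± 0.08 (edgeR adjusted p = 5.8e-15), from 1061 and 1292 CPM to 233 CPM. Fcgr4 was higher by 1.13 ± 0.16 (adjusted p = 8.3e-06), Fcgr1 by 0.59 ± 0.06 (adjusted p = 1.8e-07) and Fcer1g by 0.50 ± 0.05 (adjusted p = 4.5e-08), again by edgeR. Fcgr3 passed narrowly (−0.18 ± 0.06, edgeR adjusted p = 0.017) and lost the call under 8 of 12 alternatives, among them leaving out mCherry replicate 1, Hevin replicate 1 or Hevin replicate 2 (adjusted p = 0.094, 0.12 and 0.62). All 5 members passed, where 38.4% of genes did (18.1% higher and 20.3% lower).

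The few Apoe-high cells of the mCherry libraries had another Fcgr2b level. It was 512 CPM (176 UMIs in 75 cells) and 535 CPM (107 UMIs in 39 cells), above the microglia of the same libraries, while in both Hevin libraries the class was below them. Between the groups, Fcgr2b fell by 0.998 ± 0.13 on the log2 scale in Apoe-high cells (edgeR, adjusted p = 1.2e-05), 1 of 5 members called where 2.48% of 13887 genes were (1.27% higher and 1.21% lower). The Hevin effect on Fcgr2b in this class differed from that in microglia by −1.14 ± 0.13 (edgeR adjusted p = 3.0e-05), again 1 of 5 members where 1.15% of 15517 genes were called (0.348% higher and 0.806% lower). Fcgr3, at 1269 and 1084 CPM against 872 and 850 CPM, did not pass (−0.29 ± 0.12, edgeR adjusted p = 0.29), except under total-count scaling (−0.46, adjusted p = 0.041).

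The mCherry cells of this class also differed from the Hevin cells in their markers. The summed border macrophage panel was 2443 and 2293 CPM in them, with all 6 genes detected, against 1103 and 1157 CPM in the Hevin libraries. Apoe and Ms4a7 together had a median of 265 and 283 UMIs per 10000 over these cells, against 358 and 373. Of the 75 and 39 cells, 12 and 6 lay within 20% of the gate's bound. The part of these marker levels in the Fcgr2b difference was not tested.

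Shares of cells with at least 1 UMI were compared at 1000 UMIs per cell, drawn at random from each cell, and 336 cells of Hevin replicate 1 were too shallow to enter. Fcgr4 was then seen in 1.77% and 1.81% of kept cells with mCherry and 2.53% and 2.72% with Hevin (unthinned 5.87% and 6.64% against 6.30% and 9.25%). The endothelial gate, at a median of 3727.5 to 6194 UMIs before thinning, had between 0% and 1.03%. Fcgr3 was seen in 70.7% and 66.4% against 60.1% and 62.2% of kept cells, Fcgr2b in 29.4% and 29.5% against 25.03% and 27.4%, and Fcgr1 in 28.8% and 29.5% against 28.9% and 29.1%. An exact two-sided permutation test of 2 against 2 libraries gave p = 0.333 for Fcgr2b, Fcgr3 and Fcgr4. That is the smallest p it can give, so it cannot tell such differences from chance. How often other genes differed in this way was not computed. The matching endothelial shares were 13.7% to 23.6% for Fcgr3, 4.48% to 6.49% for Fcgr2b and 2.06% to 6.83% for Fcgr1.

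At that depth most cells showed 1 or 2 of the 4 receptors. In microglia-gated cells 45.2% to 47.4% had UMIs of 1 receptor and 30.0% to 32.7% of 2. In border-macrophage-gated cells 42.2% to 44.0% had UMIs of 2 and 7.59% to 10.5% of none. Microglia with no receptor UMI had an Fcer1g UMI in 86.7% to 88.4% of cells, and those with one in 86.9% to 88.0%.

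Within the classes, Fcgr1 and Fcgr4 stood apart in cells with an interferon response. Microglia-gated cells with at least 10 UMIs per 10000 from 8 interferon-response genes (such as Ifit3, Isg15 and Cxcl10) numbered 64, 43, 31 and 46. Their Fcgr1 level was 1032, 1294, 859 and 1149 CPM, against 366, 371, 361 and 357 CPM in the other microglia, a ratio of 2.82, 3.49, 2.38 and 3.22. Their Fcgr4 level was 83.1, 140, 191 and 164 CPM against 17.8, 17.2, 23.1 and 24.3 CPM, from 19, 26, 14 and 25 UMIs. Both genes were higher in the interferon-high cells in all 4 libraries, and no test was made because the bound was set with the data in view. Fcgr2b (341, 387, 423 and 447 CPM) and Fcgr3 (1408, 1155, 1254 and 1333 CPM) were much nearer to their level in the other microglia. Interferon-high Apoe-high cells of the Hevin libraries (289 and 149 cells) had Fcgr1 at 812 and 683 CPM against 358 and 361 CPM and Fcgr4 at 98.4 and 87.4 CPM, or 3.94 and 2.96 times the rest of the class.

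The stretches just upstream of Fcgr1 and Fcgr4 are shown because these 2 genes were each higher in the interferon-high cells. Each is the 250 bases before the start site in RefSeq (GRCm38.p6), on the gene's strand, chr3:96293970-96294219 (minus strand) for Fcgr1 and chr1:171018676-171018925 (plus strand) for Fcgr4. Capitals mark matches to 3 motifs searched on both strands.
Fcgr1: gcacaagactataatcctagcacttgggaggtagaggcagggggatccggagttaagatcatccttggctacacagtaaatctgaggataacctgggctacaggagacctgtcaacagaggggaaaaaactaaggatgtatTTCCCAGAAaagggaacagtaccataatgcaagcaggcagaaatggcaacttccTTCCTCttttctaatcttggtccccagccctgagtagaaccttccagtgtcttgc
Fcgr4: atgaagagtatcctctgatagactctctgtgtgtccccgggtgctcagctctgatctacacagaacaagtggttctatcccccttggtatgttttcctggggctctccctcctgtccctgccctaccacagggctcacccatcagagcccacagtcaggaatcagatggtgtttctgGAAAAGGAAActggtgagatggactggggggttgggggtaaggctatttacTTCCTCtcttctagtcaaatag
The interferon-gamma-activated (GAS) motif TTCNNNGAA matched in Fcgr1 at 109 to 101 bases before the start and in none of the other 4 genes. The interferon-stimulated response motif (GAAA, any 2 bases, GAAA) matched in Fcgr4 at 73 to 64 bases before the start and in none of the other 4. A core of the site of PU.1 (Spi1, the master regulator of macrophages), GAGGAA, matched in reverse in Fcgr1 (55 to 50 bases before the start), Fcgr4 (22 to 17) and both RefSeq starts of Fcgr3 (6 to 1 and 15 to 10), and in neither Fcgr2b nor Fcer1g. No match overlapped another. Of 27025 upstream windows of the same length, 7.18% held the first motif, 3.04% the second and 23.1% the third. A match describes these letters alone and shows no binding.

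Cells high in Arg1 and the Sprr2a genes had a different receptor set. Among microglia-gated and ungated cells, 82, 52, 53 and 48 reached 10 UMIs per 10000 from these 4 genes. In them Fcgr2b was at 1107, 1184, 1225 and 1139 CPM against 323, 320, 324 and 357 CPM in the rest, and Fcgr4 at 136, 159, 193 and 205 CPM against 19.9, 19.3, 27.9 and 29.4 CPM. Fcgr1 was lower in all 4 libraries, at 215, 244, 131 and 210 CPM against 367, 373, 348 and 355 CPM. Ungated cells as a whole had Fcgr2b at 379 to 575 CPM, Fcgr4 at 54.3 to 103 CPM and Fcgr1 at 269 to 285 CPM. The part of the mix of gated and ungated cells in these differences was not tested. These states were chosen after values had been seen, so no test was made.

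Dividing microglia (93, 44, 58 and 28 cells by 6 genes such as Mki67 and Top2a) had less Fcgr3 than the other microglia, at 648, 565.5, 837 and 629 CPM against 1320, 1184, 1179 and 1272 CPM. Their Fcgr1 was at 411, 369, 339 and 362 CPM against 368, 375, 364 and 363 CPM, and their Fcgr4 rested on 0 to 4 UMIs per library. Their Fcer1g was lower as well, at 1680, 1639, 1919 and 1817 CPM against 2167, 2112, 2267 and 2142 CPM. Dividing Apoe-high cells of the Hevin libraries (98 and 58 cells) had Fcgr3 at 596 and 493 CPM against 875 and 854 CPM. Ccl3- and Ccl4-high microglia (81, 64, 37 and 31 cells) had Fcgr2b at 302 to 365 CPM and Fcgr3 at 1010 to 1370 CPM, ranges that overlap those of the other microglia. At this bound their Fcgr1 was lower in all 4 libraries, at 322, 353.5, 317 and 356 CPM against 368.5, 375 and, with Hevin, 364 and 363 CPM. That did not hold with the bound at 20 UMIs per 10000. Their Fcgr1 was then 0.927 and 1.09 (mCherry) and 0.972 and 0.794 (Hevin) times the level of the rest. Apoe-high cells of the Hevin libraries with Spp1 and Gpnmb (130 and 66 cells) had Fcgr2b at 303.5 and 358 CPM against 232 CPM in the rest of the class and Fcgr1 at 329 and 282 CPM against 370.3 and 370 CPM. With the bound at 20 UMIs per 10000, Fcgr1 in interferon-high microglia was 2.94 to 5.04 times and Fcgr4 7.06 to 14.1 times the level of the rest.

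**Figure D4:**
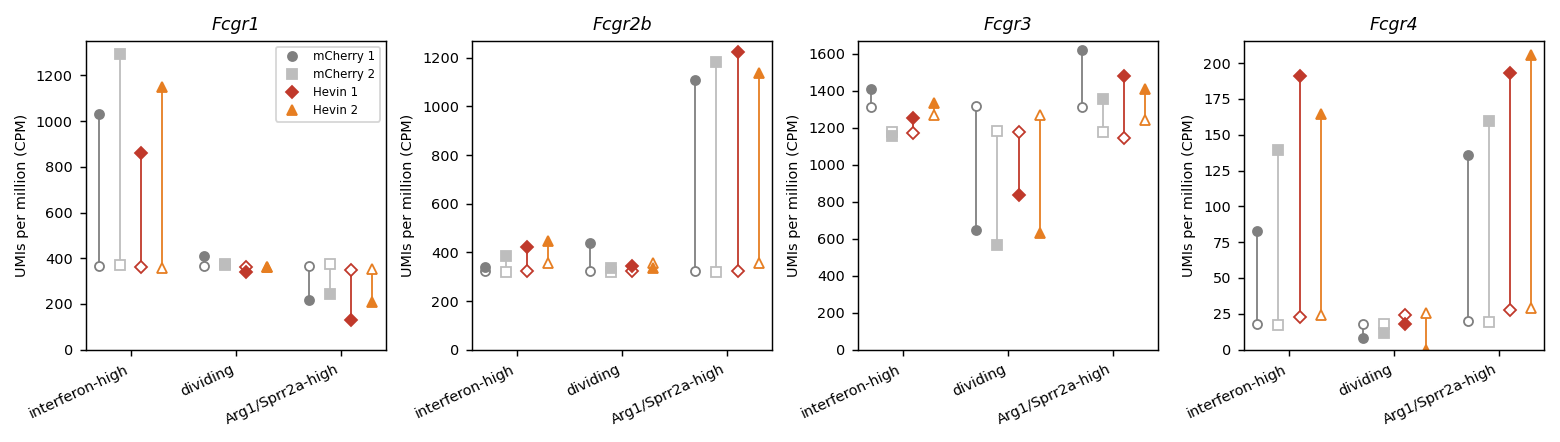
CPM of the 4 receptors in 3 cell states (filled) and in the remaining cells of the set they were taken from (open), joined per library, with y axes from 0. That set is the microglia gate, or microglia-gated and ungated cells together for the Arg1- and Sprr2a-high cells. Filled points of Fcgr1 and Fcgr4 lie above the open ones in interferon-high microglia (Fcgr1 859 to 1294 CPM), filled points of Fcgr3 lie below in dividing microglia (565.5 to 837 CPM), and Fcgr2b lies above in Arg1- and Sprr2a-high cells (1107 to 1225 CPM).

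Genes downstream of the receptors were read against all genes tested over all kept cells, of which 6.85% were called higher and 4.3% lower. Of 17 genes of activating Fc receptor signalling, from the kinases Lyn and Syk to Plcg2, 1 was higher and none lower, a share near that over all genes (edgeR, median log2 fold change −0.03 against 0.00 over all genes tested). The gene was Vav3, at 21.4 and 22.4 CPM against 32.3 and 31.9 CPM (0.67 ± 0.08, edgeR adjusted p = 0.0031). Syk, at 120 and 127 CPM against 110.2 and 111.5 CPM, did not pass (−0.04 ± 0.07, edgeR adjusted p = 0.79). Of 10 inhibitors of the pathway, 1 was higher and none lower, again near the share over all genes, namely the adaptor Dok3 (0.49 ± 0.06, edgeR adjusted p = 0.0045). Inpp5d, the phosphatase recruited by Fcgr2b, was at 669 and 747.5 CPM against 507 and 613.5 CPM and did not pass (−0.22 ± 0.12, edgeR adjusted p = 0.31).

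Other receptors that use the same or a related chain, and such chains themselves, were read against the same shares (11.1% of genes called in either direction). Of 7 further partners of Fcer1g, 5 were tested and 2 were higher. Clec4n (dectin-2, a receptor for fungal mannans) was at 25.2 and 24.8 CPM against 115.5 and 111 CPM (2.30 ± 0.07, edgeR adjusted p = 2.0e-05). Clec4d passed at a very low level, 1.14 and 0.77 CPM against 3.35 and 2.63 CPM. A list of 9 genes held Tyrobp, the adaptor Hcst and receptors that use the Tyrobp chain. In it Hcst (0.46 ± 0.07, log2), Clec5a (0.47 ± 0.06) and the very low Sirpb1a (1.36 ± 0.29) were higher by edgeR. Siglech, a microglial lectin, was lower (1690 and 1706 CPM against 758 and 967 CPM, −0.86 ± 0.13 on the log2 scale, edgeR adjusted p = 0.0074). Siglech is also a gene of the microglia gate. Tyrobp itself, the sister chain of Fcer1g, was at 3051 and 2950 CPM against 2880 and 3077 CPM (0.11 ± 0.09, edgeR adjusted p = 0.58).

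A list of 14 receptors other than Fcgr2b, most but not all of them inhibitory with an ITIM, had 13 genes tested. Over all kept cells 8 were higher and none lower by edgeR, where 6.85% of all genes were higher and 4.3% lower. The median log2 fold change was 0.61 against 0.00 over all genes. Clec12a rose from 10.9 and 10.3 CPM to 155.5 and 130 CPM (3.87 ± 0.12, edgeR adjusted p = 2.0e-05). Lilrb4a rose from 16.3 and 17.3 CPM to 77.9 and 68.5 CPM (2.25 ± 0.09, edgeR adjusted p = 6.0e-05). Cd72 had a log2 fold change of 2.30 ± 0.11 by edgeR (6.13 and 5.84 CPM against 28.7 and 25.6 CPM). Siglece rose from 66.7 and 63.5 CPM to 96.4 and 88.5 CPM (0.62 ± 0.08, edgeR adjusted p = 0.0036). Fcgr2b, the ITIM receptor of the Fc family, did not pass (above). Apoe-high cells, whose share differed between the groups, had 8 of these 13 genes higher and 2 lower than microglia within the Hevin libraries, where 17.6% of all genes were higher and 19.9% lower, and the part of that share in the calls was not tested. Among other Fc receptors, Fcrl1 was lower (43.9 and 43.3 CPM against 24.2 and 28.6 CPM, −0.61 ± 0.09, edgeR adjusted p = 0.0074) and Fcrls, a microglial relative, was at 1792 and 1933 CPM against 1396 and 1544 CPM without passing (−0.23 ± 0.10, edgeR adjusted p = 0.23). Within the microglia gate no gene of the 6 lists was called by edgeR.

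Across 21 sums (6 cell classes by library, with at least 50 cells), the levels most like that of each member, among 7345 genes, were found by Pearson's r. Points share libraries and depth, so r is a description. Of the sums, 4 were endothelial-gated and 2 astrocyte-gated, where these genes were low. Any gene of myeloid cells in general can therefore reach a high r. Fcgr1 was most like the complement genes C1qa (r = 0.996), C1qb and C1qc, and Fcer1g most like Tyrobp (0.990) and Spi1 (0.988). Fcgr3 was most like the lysosomal gene Cd68 (0.991), Fcgr2b like Ptafr (0.976) and Nrros (0.971), and Fcgr4 like Tmem179b (0.941) and Clec5a (0.902). Among the members, Fcgr3 and Fcer1g were most alike (0.968), and Fcgr2b was least like Fcgr4 (0.506) and Fcgr1 (0.533). Of 52 other annotated genes within 250 kb of the stretch from Fcgr2b to Fcgr4, 16 were tested over all kept cells and 2 were called, near the 11.1% called over all genes. Atf6, a sensor of unfolded protein, was the 1 called higher (0.40 ± 0.06, edgeR adjusted p = 0.010) and Pcp4l1 the 1 called lower (−0.66 ± 0.15, edgeR adjusted p = 0.036).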

How the data were processed

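PIPseq UMI counts of polyA RNA were deposited by the authors as raw counts per gene and barcode, with mm10 named as the build in the submitters' processing notes. Aligner, counter and cell calling: not given in the sources used here. Barcodes with at least 500 UMIs, 300 genes and at most 10% mitochondrial UMIs were kept (44, 28, 202 and 41 removed). No doublet caller was run. Cells passing panels of different classes were set apart, and an alternative left out the 5% of cells with most UMIs. Each cell was gated on summed panel UMIs per 10000 (bounds microglia 70, border macrophage 60, Apoe-high 150, MHC class II 150), set after seeing the panel distributions. The members and lists were chosen with earlier results of these data known.

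Counts summed per library and class were tested with edgeR 4.0.16 (quasi-likelihood, TMM, filterByExpr, Benjamini-Hochberg over all genes tested, threshold 0.05). A run on simulated counts, with a fixed dispersion and few genes changed, checked the code alone. It cannot vouch for comparisons in which many genes differ. Contrasts between classes used 1 fit with a library block. Printed CPM are plain. DESeq2 1.42.0, other scalings, filters, bounds and leaving out each library were alternatives. Context genes are named where called with a mean of at least 10 CPM, at most 4 per list and direction. Clec4d, Sirpb1a, Syk, Inpp5d, Tyrobp, Fcrls, Atf6 and Pcp4l1 were chosen after their values were seen.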

Additional observations from a re-analysis of the deposited data

Results flagged for a closer look

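The Hevin effect on Fcgr2b differed between Apoe-high and microglia-gated cells. The difference of the log2 fold changes was −1.14 ± 0.13 (edgeR adjusted p = 3.0e-05, a contrast added after the data had been seen). Fcgr2b was above the microglia of the same library in the Apoe-high cells of both mCherry libraries and below them in both Hevin libraries. In that contrast 1.15% of 15517 genes were called, and the estimate lay between −1.24 and −0.94 over 12 alternatives, past the threshold in each. The mCherry side rests on 75 and 39 cells.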

How the results depend on the processing

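Of the values of single members recomputed under other settings, 517 kept direction and side of the threshold, 32 changed sign, 10 gained and 11 lost the call. The cause was not tested. With total-count scaling, Fcgr3 joined Fcgr2b past the threshold in Apoe-high cells and in the comparison of the Hevin effect in Apoe-high cells with microglia. That scaling turned the sign of Fcgr1 (−0.015 over all kept cells, −0.034 in microglia, −0.079 in Apoe-high cells, −0.042 in the comparison of effects), Fcgr3 in microglia (−0.029), Fcgr4 in Apoe-high cells (−0.10) and Fcer1g in the comparison of effects (−0.039). With no filter on low counts Fcgr4 passed in microglia, and Fcgr1 there was −0.0021. The number of all genes called changed with the setting too (ranges below). Fcgr1 in microglia was −0.0054 with at least 3000 UMIs per cell and −0.0057 with panel bounds divided by 1.5. Those lower bounds also gave −0.84 for Fcgr4 and −0.020 for Fcer1g in Apoe-high cells and −0.032 for Fcer1g in the comparison of effects. Bounds times 1.5 gave 0.014 for Fcgr3 in border macrophages, 0.024 for Fcgr4 in the border macrophage comparison of effects and 0.64 in the Apoe-high one. DESeq2 size factors gave −0.0023 for Fcgr4 in Apoe-high cells. None of the values that changed sign had passed the threshold.

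Leaving out 1 library in turn gave, in microglia, −0.0049 to 0.033 for Fcgr1 and −0.052 to 0.093 for Fcgr3. In border macrophages it gave −0.24 to 0.055 for Fcgr2b, −0.055 to 0.031 for Fcgr3 and −0.032 to 0.16 for Fcer1g. In Apoe-high cells it gave −0.032 to 0.21 for Fcgr1 and −0.31 to 1.12 for Fcgr4. The difference of effects ranged, for border macrophages, over −0.37 to 0.20 (Fcgr4) and −0.069 to 0.0040 (Fcer1g), and for Apoe-high cells over −0.80 to 0.66 (Fcgr4). Counts of all genes called by edgeR also moved. They were 0 to 302 in microglia (main 0), 6 to 252 in border macrophages (main 40, the low end without mCherry replicate 1), 35 to 502 in Apoe-high cells (main 345, again lowest without that library) and 1323 to 2599 over all kept cells (main 2131, lowest with at least 3000 UMIs per cell). The comparisons of effects gave 22 to 166 genes for border macrophages (main 69) and 24 to 386 for Apoe-high cells (main 179).

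The share of cells with a UMI, Hevin minus mCherry in percentage points, depended on depth. Without thinning it was −8.97 for Fcgr1, −12.6 for Fcgr2b, 1.52 for Fcgr4 and −1.60 for Fcer1g, and at 2000 UMIs −0.77 for Fcgr1, −4.82 for Fcgr2b and 1.70 for Fcgr4.

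The replicate numbers are shared by the groups but nothing says that they mark a shared litter or day. Same-numbered libraries deviated together (correlation 0.597 over 6626 genes, 1 value with 2 libraries a group). With the replicate block 1 member passed in microglia (Fcgr4, edgeR adjusted p = 7.4e-05), and the genes called numbered 4533 over all kept cells, 848 in microglia, 417 in border macrophages and 354 in Apoe-high cells.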

Other observations

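Fcgr4 UMIs were spread unevenly over cells. Cells that passed no gate held 2.60%, 2.55%, 5.93% and 4.53% of all UMIs (mCherry 1 and 2, then Hevin 1 and 2) but 13.9%, 13.5%, 12.2% and 12.5% of the Fcgr4 UMIs. Monocyte-gated cells (34, 8, 32 and 19) had Fcgr4 at 209, 368, 181 and 470 CPM, from 16 to 31 UMIs per library, and Fcgr1 at 142, 92.1, 107 and 167 CPM.

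Among ungated and monocyte-gated cells, 83 held at least 3 Fcgr4 UMIs. In the microglia gate 21, 25, 5 and 12 cells did so (mCherry 1 and 2, then Hevin 1 and 2), and in the Apoe-high gate 1, 0, 10 and 17. The 83 cells were compared with all kept cells and not with the other ungated or monocyte-gated cells. Chosen by gate and by Fcgr4 after the data had been seen, the 83 cells also held Arg1 at 247 CPM against 6.62 CPM over all kept cells. In them Sprr2a2 was at 451 against 16.5 CPM and Itgal at 293 against 21.3 CPM. Ccl5 was at 505 CPM over these cells together, but at 1870 CPM in those of mCherry replicate 1, 22.3 CPM in those of Hevin replicate 2 and listed at 0 in those of the other libraries.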
